A study of Mus musculus with 8 samples.

Results

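Cells sense foreign or misplaced nucleic acids with receptors in the cytosol and endosome, and answer by making interferon and a battery of interferon-stimulated genes. The genes described here are 33 named members of that system, found by symbol among the 55471 gene rows of the count files, of which 15084 rows had enough counts to be tested. They were sorted by role into 8 sensors and adaptors, 5 transcription factors, 9 antiviral effectors, 3 genes of the ISG15 system with its ubiquitin ligase, and 8 membrane effectors and other induced genes. The rule is a list of names with no threshold on a measured value, although the list was drawn up with earlier results of these data known. All 33 passed the filter on low counts.

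RNA was sequenced from small pieces of heart, with 4 libraries of wild-type (WT) and 4 of TAZG197V hearts. The mice were 14 weeks old, and the mutants were hemizygous males. TAZG197V mice carry a point mutation, introduced with CRISPR/Cas9 in C57BL/6N zygotes, in the X-linked gene for Tafazzin, the mitochondrial enzyme that remodels cardiolipin, and founders were then crossed to C57BL6/J. No treatment was given to either genotype, the parentage of the WT mice and the substrain of each library were not given in the sources used here, and the libraries are taken as 1 mouse each. The comparison asks how the mutation, a model of Barth syndrome, changed heart transcripts.

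In the textbook pathway, cGAS binds double-stranded DNA and signals through STING, while RIG-I (Ddx58), MDA5 (Ifih1) and TLR3 bind double-stranded RNA. RIG-I and MDA5 signal through MAVS, an adaptor on the outer mitochondrial membrane. The factors IRF3 and IRF7 then switch on interferon genes, and secreted interferon acts through JAK kinases on a complex that holds STAT2 and IRF9 and binds a promoter motif called the interferon-stimulated response element (ISRE).

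Total counts per library ranged from 23055689 to 36301031. Cardiomyocyte markers were abundant in every library, with summed levels of 57209 to 64914 CPM in WT and 48610 to 52760 CPM in TAZG197V (read counts relative to library size, scaled by TMM, a correction for library composition). The mutated gene Taz was transcribed in all 8 libraries and had a log2 fold change of -0.37 ± 0.0551 (SE, edgeR adjusted p = 0.00124). A count per gene does not show the point mutation. WT 4 stood apart from the other WT libraries. Its 6 red cell markers summed to 55072 CPM against 346 to 1065 CPM in WT 1 to WT 3 and 227 to 571 CPM in TAZG197V, and its B cell markers to 69.7 CPM against 1.49 to 5.05 CPM in the other WT libraries. Both number 4 libraries also carried brain markers, at 82.9 CPM in WT 4 and 183 CPM in TAZG197V 4 against 5.53 to 9.98 CPM in the other 6. Results that rest on these libraries are therefore given with and without them. The fit over 8 libraries held 2 surrogate variables, which are estimated from the counts to take up variation other than genotype. They were estimated anew for each set of libraries, and the fits without WT 2, WT 4, TAZG197V 4 or both number 4 libraries held 1, so those values differ from the fit over 8 libraries in both respects. In pieces of tissue, fewer cells of a type and less RNA per cell cannot be told apart.

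Of the 33 genes, 6 were called higher in TAZG197V (Ifit2, Ifit3, Oas1a, Oas2, Usp18 and Rtp4) and 2 were called lower (Mavs and Irf1). A call required an edgeR adjusted p under 0.05 over all genes tested, a log2 fold change beyond 0.20 in either direction and a mean scaled count of at least 50. Of all genes tested, 33.5% were called, 18.5% higher and 15.1% lower, so the share of members called higher (18.2%) was near the background and the share called lower (6.06%) was below it. The median log2 fold change of the members was 0.17 and that of all genes tested was -0.01. The genotypes did not overlap for 4 members, all higher in TAZG197V (Dhx58, Ifit2, Oas1a and Oas2), which was 12.1% of members beside 19.3% of all genes tested. For 0 members were all TAZG197V libraries below all WT libraries, beside 13.9% of genes tested. At an unadjusted p under 0.05 there were 13 of 33 members, the 8 called and Sting1, Tlr3, Ifit1, Ifi44 and Xaf1, beside 7271 of the 15084 genes tested, a larger share. The other 25 members were not called, and Cgas and Mx1 were under the mean count of 50 that a call needed.

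**Figure D1:**
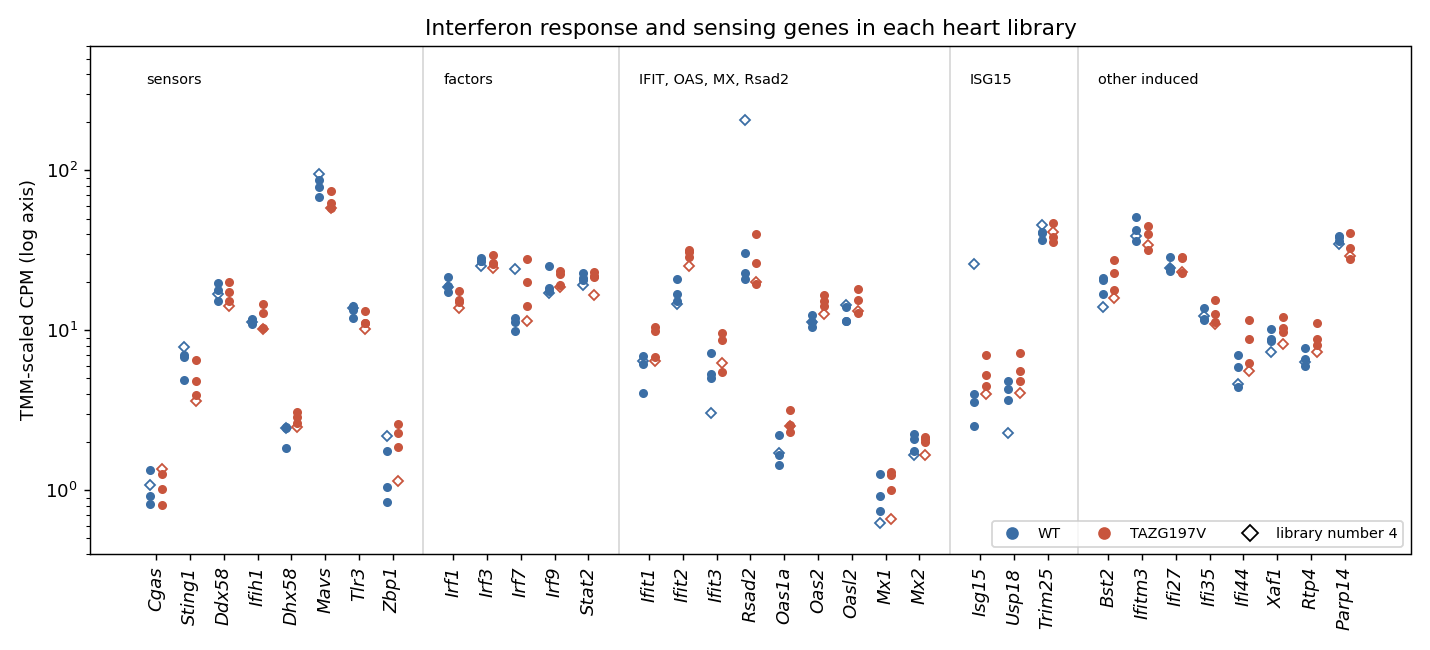
TMM-scaled CPM on a log axis (vertical) of each of the 33 genes (horizontal, grouped by role), with 1 point per library, WT in blue and TAZG197V in red, and open diamonds for the number 4 libraries. Rsad2 and Isg15 each have 1 WT library far above the rest, at 208 and 26.03 CPM, and for Ifit2 the 4 TAZG197V points (25.3 to 31.9) all lie above the 4 WT points (14.7 to 20.9).

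Promoter sequences are shown for 6 effectors because the ISRE is the motif through which interferon is known to act on them. Of the 33 genes, 23 had a promoter window in RefSeq (GRCm38.p6, 250 bases before to 50 after the start), and Dhx58, Ifi27, Mx1, Mx2, Oas2, Parp14, Rtp4, Sting1, Usp18 and Zbp1 were not among them. The letters GAAA, any 2 bases and GAAA again were taken as the ISRE core, and were searched on both strands, so that a match on the other strand reads TTTC, 2 bases and TTTC. The 160 bases before the start follow, 5′ to 3′ on the gene's strand, with matches in capitals.
Ifit2, chr19:34550534-34550693, plus strand: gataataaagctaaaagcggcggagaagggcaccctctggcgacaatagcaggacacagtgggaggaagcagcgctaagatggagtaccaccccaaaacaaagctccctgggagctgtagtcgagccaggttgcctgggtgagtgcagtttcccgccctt
Ifit3, chr19:34583369-34583528, plus strand: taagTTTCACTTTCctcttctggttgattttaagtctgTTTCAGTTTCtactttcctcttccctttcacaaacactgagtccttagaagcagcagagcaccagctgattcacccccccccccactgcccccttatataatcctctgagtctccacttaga
Ifit1, chr19:34640729-34640888, plus strand: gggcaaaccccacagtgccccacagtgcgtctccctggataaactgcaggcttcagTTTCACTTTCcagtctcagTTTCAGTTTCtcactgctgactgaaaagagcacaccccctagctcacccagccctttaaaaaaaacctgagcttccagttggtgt
Oas1a, chr5:120907526-120907685, minus strand: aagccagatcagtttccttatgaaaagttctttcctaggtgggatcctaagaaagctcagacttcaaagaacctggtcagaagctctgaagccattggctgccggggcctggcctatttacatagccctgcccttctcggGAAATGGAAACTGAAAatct
Isg15, chr4:156200819-156200978, minus strand: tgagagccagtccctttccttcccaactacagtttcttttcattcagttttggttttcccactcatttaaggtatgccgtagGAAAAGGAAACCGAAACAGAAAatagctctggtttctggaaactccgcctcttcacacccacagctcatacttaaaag
Rsad2, chr12:26456453-26456612, minus strand: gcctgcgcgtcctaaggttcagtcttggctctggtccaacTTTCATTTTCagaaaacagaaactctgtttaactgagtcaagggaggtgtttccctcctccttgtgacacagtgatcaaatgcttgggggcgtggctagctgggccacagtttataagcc

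The ISRE letters occurred in the windows of 10 of the 23 members (43.5%), beside 3.44% of all 32851 windows and 3.99% of the 27025 genes with a window. Ifit3 and Ifit1 held 2 separate matches each, Oas1a held 2 that overlap, Isg15 held 3 that overlap, and Rsad2 held 1. Neither of the windows listed for Ifit2 held these letters, although Ifit2 had the smallest adjusted p of the 33 genes. Among members with a window, the letters were found in 2 of the 3 called higher (Ifit3 and Oas1a), in 0 of the 2 called lower and in 8 of the 18 not called. A match is a run of letters and not a measured binding site, and a window without one says nothing of the factor.

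Among the sensors and adaptors, 0 of 8 were called higher and 1, Mavs, was called lower. Mavs encodes the mitochondrial adaptor through which RIG-I and MDA5 signal, and was the most abundant sensing gene, at 24.6 CPM per kilobase of exon in WT. It measured 78.9, 68.6, 86.6 and 95.4 CPM in WT 1 to WT 4 and 62.2, 57.9, 74.3 and 58.5 CPM in TAZG197V 1 to TAZG197V 4. The genotypes overlapped, since TAZG197V 3 lay above WT 2, and WT 4 was the highest. Mavs had a log2 fold change of -0.42 ± 0.0838 (SE, edgeR adjusted p = 0.00509), and the call was lost without WT 4 (-0.29, adjusted p = 0.062), without TAZG197V 4 (-0.27, adjusted p = 0.0822) and without both (-0.25, adjusted p = 0.0507).

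The DNA-sensing arm, Cgas and Sting1, was not called. Cgas, which makes the cyclic dinucleotide that activates STING, was the lowest sensor, with 0.913, 1.35, 0.816 and 1.07 CPM in the WT libraries and 1.02, 0.81, 1.26 and 1.36 CPM in the TAZG197V libraries. These ranges nearly coincide, and the log2 fold change was 0.17 ± 0.221 (SE, edgeR adjusted p = 0.578). Sting1, the membrane protein that receives that signal, ranged from 4.90 to 7.81 CPM in WT and from 3.63 to 6.55 CPM in TAZG197V, with a log2 fold change of -0.53 ± 0.217 (SE, edgeR adjusted p = 0.0872) that was called without TAZG197V 3 (-0.69, adjusted p = 0.0392) and was -0.30 without both number 4 libraries (adjusted p = 0.308).

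The RNA sensors Ddx58 and Ifih1 had log2 fold changes of -0.05 ± 0.115 and 0.06 ± 0.117 (SE, edgeR adjusted p = 0.772 and 0.705). Dhx58 encodes LGP2, a regulator of RIG-I and MDA5 that lacks their signalling domain. It measured 1.83, 2.47, 2.45 and 2.46 CPM in WT 1 to WT 4 and 2.62, 2.86, 3.10 and 2.49 CPM in TAZG197V 1 to TAZG197V 4. All TAZG197V libraries lay above all WT libraries, by a gap of hundredths of a CPM between WT 2 and TAZG197V 4, and the log2 fold change of 0.27 ± 0.171 (SE) was not called (edgeR adjusted p = 0.25). Tlr3, the endosomal receptor for double-stranded RNA, had a log2 fold change of -0.24 ± 0.0995 (SE, edgeR adjusted p = 0.0952). Zbp1, which binds left-handed nucleic acid and can start cell death, ranged from 0.846 to 2.19 CPM in WT and from 1.14 to 2.58 CPM in TAZG197V. Zbp1 had a log2 fold change of 0.39 ± 0.379 (SE, edgeR adjusted p = 0.441), and it was called without both number 4 libraries (0.90, adjusted p = 0.0217).

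Of the 5 transcription factors, 0 were called higher and Irf1 was called lower. Irf1, an activator best known downstream of interferon-gamma, measured 17.5, 21.5, 18.8 and 18.7 CPM in WT and 15.4, 17.6, 15.1 and 13.8 CPM in TAZG197V. Only TAZG197V 2 reached into the WT range. The log2 fold change was -0.28 ± 0.0888 (SE, edgeR adjusted p = 0.035), and the call was lost without WT 3 (-0.30, adjusted p = 0.0577), TAZG197V 1 (-0.27, adjusted p = 0.0935), TAZG197V 3 (-0.25, adjusted p = 0.0865) or TAZG197V 4 (-0.26, adjusted p = 0.0724).

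Irf3, the factor that MAVS and STING signalling activates, was the most abundant factor per kilobase. It measured 27.2, 28.2, 27.3 and 25.4 CPM in WT and 26.4, 29.7, 25.9 and 24.6 CPM in TAZG197V, with a log2 fold change of -0.01 ± 0.0649 (SE, edgeR adjusted p = 0.895). Stat2, the least abundant per kilobase, measured 20.6, 22.8, 21.3 and 19.2 CPM in WT and 21.7, 21.8, 23.2 and 16.6 CPM in TAZG197V, with a log2 fold change of -0.01 ± 0.0686 (SE, edgeR adjusted p = 0.961). Both factors overlapped between genotypes. Irf9, the DNA-binding partner of STAT2, had a log2 fold change of 0.17 ± 0.0897 (SE, edgeR adjusted p = 0.178), or 0.04 without WT 4 (adjusted p = 0.833).

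Irf7, the interferon-induced factor that amplifies the response, measured 11.3, 11.9, 9.90 and 24.2 CPM in WT 1 to WT 4 and 14.2, 19.9, 27.8 and 11.5 CPM in TAZG197V 1 to TAZG197V 4. WT 4 exceeded every TAZG197V library but TAZG197V 3, and the other WT libraries lay near or below the lowest one. Over 8 libraries the log2 fold change was 0.26 ± 0.329 (SE, edgeR adjusted p = 0.553). It was called higher without WT 4 (0.74, adjusted p = 0.0216), without TAZG197V 4 (0.85, adjusted p = 0.0112), without both (0.90, adjusted p = 0.0127) and over 8 libraries with no low-count filter (0.65, adjusted p = 0.00684).

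The antiviral effectors held most of the higher calls, 4 of 9 with 0 lower, beside 18.5% of all genes tested called higher, and their median log2 fold change was 0.36. The 4 became 2 without WT 1 or TAZG197V 1 (Oas1a and Oas2 lost) and without TAZG197V 2 (Ifit3 and Oas1a lost). The IFIT proteins bind foreign RNA and block its translation. Ifit2 (ENSMUSG00000045932, mm10 chr19:34550694-34576419, plus strand) measured 15.3, 20.9, 17.0 and 14.7 CPM in WT 1 to WT 4. It measured 28.8, 30.7, 31.9 and 25.3 CPM in TAZG197V 1 to TAZG197V 4. Every TAZG197V library exceeded every WT library, in lane 7 (libraries 1 and 2) as in lane 8 (libraries 3 and 4). The fitted log2 difference was 0.83 ± 0.0789 (SE, edgeR adjusted p = 0.000145). Ifit2 was called under all 17 alternatives, with log2 fold changes of 0.73 to 0.88, and 0% of its 50-base windows occurred in another annotated transcript.

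Ifit3 measured 5.31, 7.20, 5.05 and 3.04 CPM in WT and 5.52, 8.72, 9.62 and 6.27 CPM in TAZG197V. The genotypes overlapped, and WT 4 was the lowest library. The Ifit3 log2 fold change was 0.70 ± 0.181 (SE, edgeR adjusted p = 0.0174), which held in 9 of 17 alternatives and was lost without WT 4 (0.37, adjusted p = 0.196), TAZG197V 2 (0.71, adjusted p = 0.0529) or TAZG197V 4 (0.50, adjusted p = 0.117). Over all 8 libraries it was lost with no surrogate variables (0.54, adjusted p = 0.161), with 1 (0.57, adjusted p = 0.0822), and with lane as covariate (0.57, adjusted p = 0.152) in their place. Ifit3 shares 51.2% of its 50-base windows with other genes, chiefly its neighbour Ifit3b, so its count is uncertain. Ifit1, the family member that recognises RNA caps lacking methylation, ranged from 4.04 to 6.90 CPM in WT and from 6.38 to 10.5 CPM in TAZG197V. The Ifit1 log2 fold change of 0.53 ± 0.222 (SE, edgeR adjusted p = 0.0916) was not called, and was called without TAZG197V 4 (0.66, adjusted p = 0.0451), without both number 4 libraries (0.69, adjusted p = 0.0191) and over 8 libraries with no low-count filter (0.57, adjusted p = 0.0346).

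The OAS proteins make the short adenylate chains that activate RNase L. Oas2 measured 10.6, 11.3, 12.4 and 11.3 CPM in WT and 15.2, 14.2, 16.5 and 12.7 CPM in TAZG197V. The genotypes did not overlap, and the log2 fold change was 0.35 ± 0.0874 (SE, edgeR adjusted p = 0.0147), called in 15 of 17 alternatives and lost without WT 1 (0.29, adjusted p = 0.0549) or TAZG197V 1 (0.33, adjusted p = 0.0529). Oas1a measured 1.66, 1.43, 2.21 and 1.70 CPM in WT and 2.33, 2.56, 3.19 and 2.53 CPM in TAZG197V. Here too every TAZG197V library lay above every WT library. The log2 fold change was 0.56 ± 0.179 (SE, edgeR adjusted p = 0.0377), and the call was lost on leaving out any library but WT 3 and WT 4, with log2 fold changes of 0.45 to 0.64 in those fits. It was also lost in DESeq2 (0.55, adjusted p = 0.111), the one member call lost there. Oas1a shares 57.6% of its 50-base windows with other genes, chiefly Oas1g, so its count is uncertain. Oasl2, a related gene, had a log2 fold change of 0.22 ± 0.143 (SE, edgeR adjusted p = 0.259).

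The Mx family is known for dynamin-like GTPases that trap viral particles, and the annotation used gives mouse Mx2 as a polymorphic pseudogene. Mx1, the least abundant effector, measured 0.913, 1.26, 0.738 and 0.625 CPM in WT and 1.31, 1.24, 1.00 and 0.66 CPM in TAZG197V. The ranges overlapped, with a log2 fold change of 0.36 ± 0.223 (SE, edgeR adjusted p = 0.227) that was 0.11 without WT 4 (adjusted p = 0.781), and that of Mx2 was 0.06 ± 0.156 (SE, edgeR adjusted p = 0.788).

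Rsad2 encodes viperin, an enzyme that makes a chain-terminating nucleotide. It measured 22.9, 20.9, 30.2 and 208 CPM in WT 1 to WT 4 and 19.5, 26.4, 39.8 and 20.2 CPM in TAZG197V 1 to TAZG197V 4. WT 4 was 6.87 times the highest other WT library, and the remaining 7 libraries overlapped. The log2 fold change over 8 libraries was -1.10 ± 0.521 (SE, edgeR adjusted p = 0.13). It was 0.14 without WT 4 (adjusted p = 0.64) and 0.24 without both number 4 libraries (adjusted p = 0.4), in fits with 1 surrogate variable, whereas with 1 surrogate variable over all 8 libraries it was -0.77 (adjusted p = 0.453). Without TAZG197V 4 the fitted value was 0.07 (adjusted p = 0.768), although WT 4 was still in that fit and the mean CPM of WT was above that of TAZG197V, so the sign of this fit was not that of the levels.

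**Figure D2:**
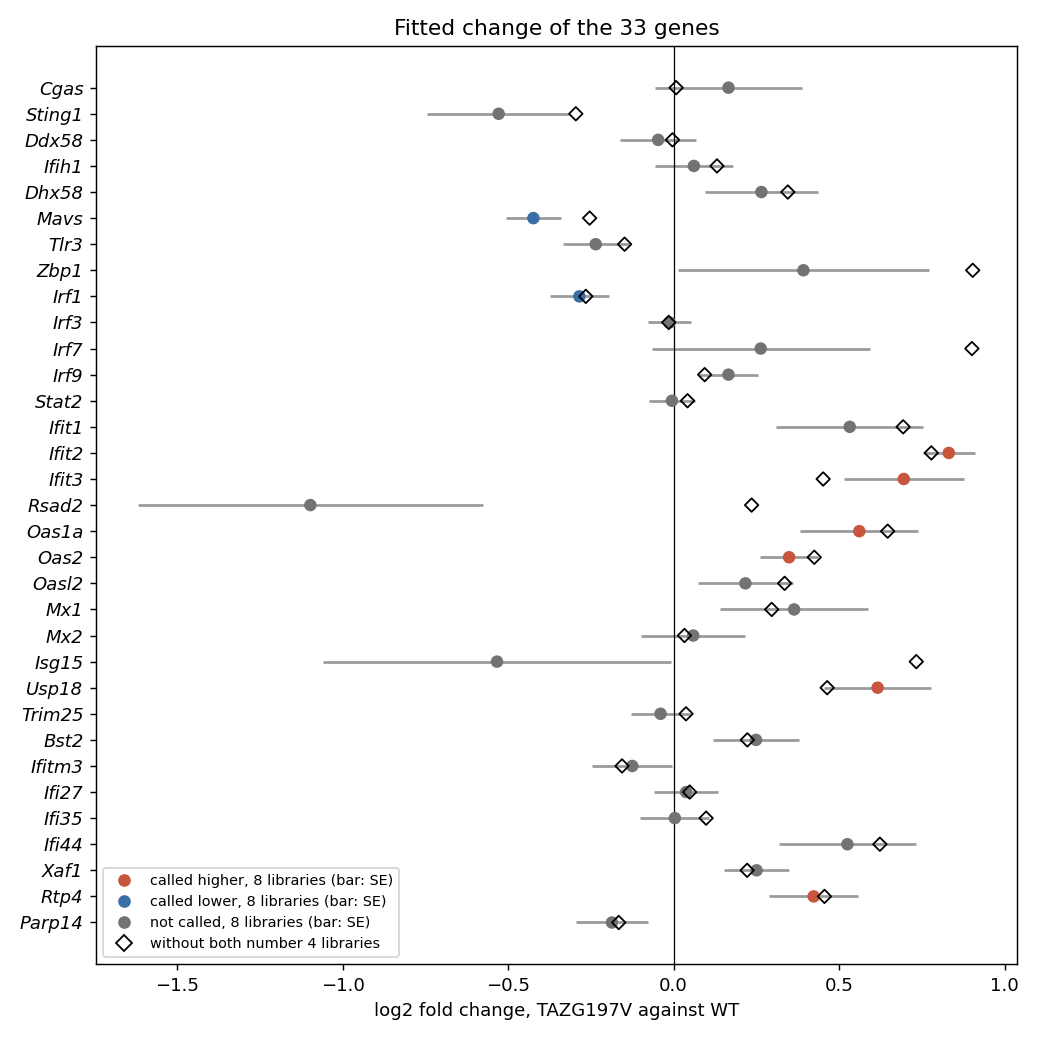
Fitted log2 fold change of TAZG197V against WT (horizontal) for the 33 genes (vertical), as filled points with SE bars over 8 libraries and open diamonds without both number 4 libraries, in a fit with 1 surrogate variable in place of 2. Ifit2 keeps its place (0.83 and 0.78), whereas Rsad2 and Isg15 move from the left of 0 to the right of it and Irf7 and Zbp1 move to about 0.90.

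ISG15 is a ubiquitin-like protein attached to newly made proteins, and USP18 removes it and also damps interferon receptor signalling. Usp18 was the 1 called gene of the 3 in this group. It measured 3.65, 4.84, 4.31 and 2.28 CPM in WT and 4.80, 7.23, 5.58 and 4.03 CPM in TAZG197V, with WT 4 the lowest and the genotypes overlapping. The log2 fold change was 0.62 ± 0.16 (SE, edgeR adjusted p = 0.0172), and the call was lost without WT 1 (0.61, adjusted p = 0.0574), WT 4 (0.36, adjusted p = 0.13), TAZG197V 2 (0.54, adjusted p = 0.061) or TAZG197V 4 (0.51, adjusted p = 0.0604). Over all 8 libraries it was lost with no surrogate variables (0.52, adjusted p = 0.161) and with lane as covariate (0.52, adjusted p = 0.14).

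Isg15 itself measured 2.50, 3.57, 4.00 and 26.03 CPM in WT 1 to WT 4 and 4.51, 5.24, 6.97 and 4.00 CPM in TAZG197V 1 to TAZG197V 4. WT 4 was 6.51 times the highest other WT library. Over 8 libraries the log2 fold change was -0.53 ± 0.527 (SE, edgeR adjusted p = 0.45). It was called higher without WT 4 (0.65, adjusted p = 0.0372) and without both number 4 libraries (0.73, adjusted p = 0.0298), in fits with 1 surrogate variable, whereas with 1 over all 8 libraries it was -0.26 (adjusted p = 0.79). Without TAZG197V 4 it was also called higher (0.60, adjusted p = 0.0225), although the mean CPM of WT, with WT 4 included, was above that of TAZG197V, so the sign of this fit was not that of the levels. Trim25, the ubiquitin ligase that activates RIG-I, measured 40.7, 36.5, 41.0 and 45.4 CPM in WT and 38.4, 35.6, 46.8 and 41.1 CPM in TAZG197V. Its ranges nearly coincided, with a log2 fold change of -0.04 ± 0.0882 (SE, edgeR adjusted p = 0.747).

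Among the membrane effectors and other induced genes, 1 of 8 was called higher and 0 lower. Rtp4, a chaperone of cell-surface receptors, measured 5.99, 7.75, 6.60 and 6.30 CPM in WT and 8.10, 8.80, 11.0 and 7.30 CPM in TAZG197V. Only TAZG197V 4 fell within the WT range. The log2 fold change was 0.42 ± 0.135 (SE, edgeR adjusted p = 0.0375), called in 8 of 17 alternatives, and it stayed between 0.34 and 0.47 in all of them although the call was lost on leaving out any 1 library except WT 2 and TAZG197V 4, with no surrogate variables (adjusted p = 0.0678) and with lane as covariate (adjusted p = 0.0841). Rtp4 shares 11.6% of its windows with Gm45338, which overlaps it.

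Ifitm3, which blocks virus entry at endosomes, was the most abundant of the 33 genes per kilobase, at 62.1 CPM per kilobase in WT and 55.5 in TAZG197V. It measured 36.1, 51.2, 42.3 and 39.0 CPM in WT and 31.8, 39.8, 44.6 and 34.2 CPM in TAZG197V, and the log2 fold change was -0.12 ± 0.121 (SE, edgeR adjusted p = 0.442). Ifi44, the least abundant in this group, measured 4.43, 5.94, 7.03 and 4.64 CPM in WT and 6.21, 8.80, 11.6 and 5.57 CPM in TAZG197V, and the log2 fold change was 0.53 ± 0.207 (SE, edgeR adjusted p = 0.0777). Ifi44 was called higher in 2 of 17 alternatives, one of them with no low-count filter (0.61, adjusted p = 0.0213). Both genes overlapped between genotypes. Bst2, which tethers budding virus, and Xaf1, a partner of apoptosis inhibitors, had log2 fold changes of 0.25 each (edgeR adjusted p = 0.16 and 0.0749), which were 0.13 and 0.15 without WT 4. Ifi27 and Ifi35 were at 0.04 and 0.00, and Parp14, an ADP-ribosyltransferase, at -0.19 (edgeR adjusted p = 0.782, 0.981 and 0.203). Parp14 was called lower without TAZG197V 3 (-0.29, adjusted p = 0.0239).

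In TAZG197V many members were high or low in the same library, and the WT libraries were more mixed. TAZG197V 3 was the highest TAZG197V library for 23 of the 33 genes and TAZG197V 4 the lowest for 23, while WT 2 was the highest WT library for 19. The lowest WT library was WT 1 for 12 genes and WT 4 for 11, and WT 4 was the highest for 8. The 11 macrophage markers, of which 0 were called, summed to 409 CPM in TAZG197V 3 and 266 CPM in TAZG197V 4, the highest and lowest of that genotype, beside 267 to 370 CPM in WT. WT 2 also had the highest summed fibroblast markers (1645 CPM) and atrial markers (919 CPM against 2.77 to 75.1 in the other WT libraries). Their part in the levels of the members was not tested.

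**Figure D3:**
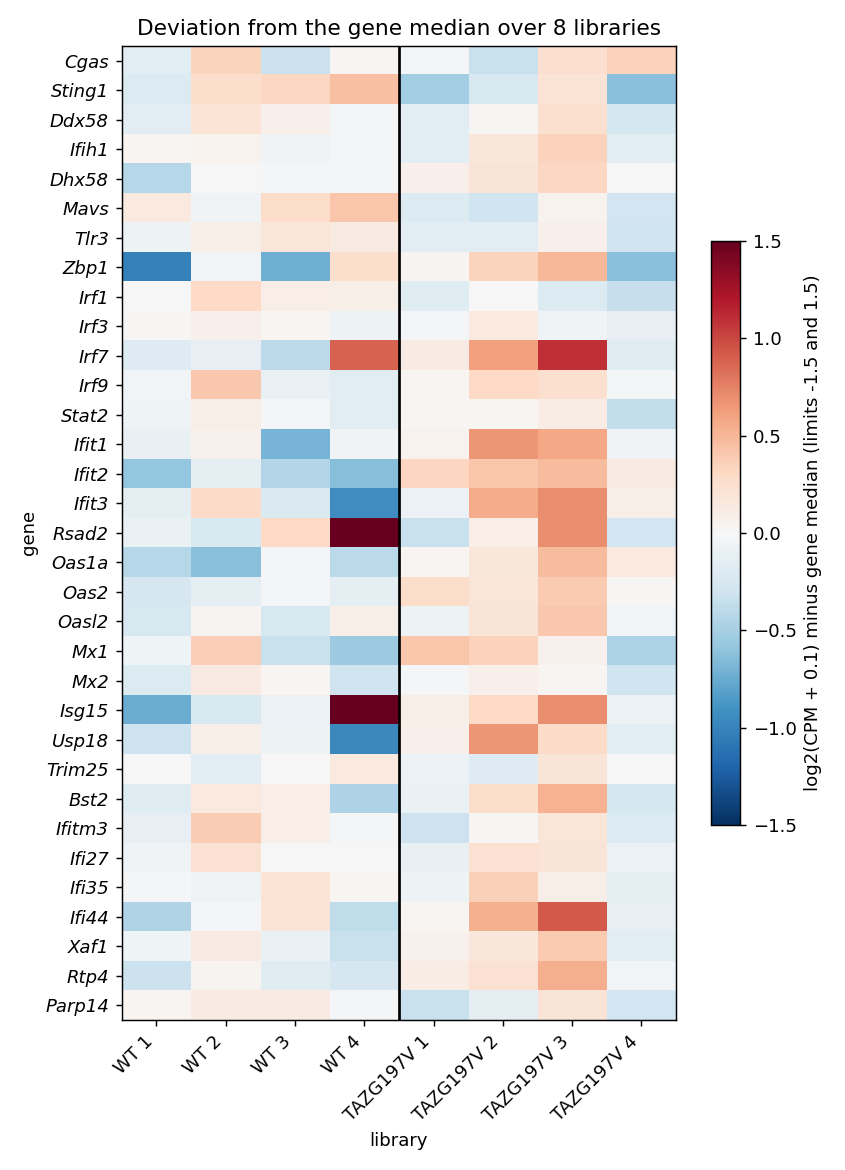
Heat map of log2(CPM + 0.1) minus the gene's median over the 8 libraries, with genes in rows, libraries in columns, and colours held at -1.5 and 1.5. TAZG197V 3 is red for most genes, WT 4 is dark red for Rsad2 and Isg15, and the Ifit2 row changes from blue in all 4 WT libraries to red in all 4 TAZG197V libraries.

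In WT 4, 3 members (Rsad2, Isg15 and Irf7) exceeded 2 times the highest other WT library, as did 583 of the genes tested (3.87%). Other interferon-related genes from the pathway lists were higher there still. Isg20, an exonuclease, measured 210 CPM in WT 4 against 4.01 to 7.03 CPM in WT 1 to WT 3. Ube2l6, the conjugating enzyme for ISG15, which was picked out after its values were seen, measured 770 CPM against 13.6 to 19.8 CPM. By contrast Ifit3 and Usp18 were lowest in WT 4, so the induced genes did not move together in that library. Beside these values stand its red cell markers (55072 CPM), neutrophil markers (83.5 CPM against 1.45 to 5.59 in the other WT libraries), T cell markers (21.9 against 2.03 to 3.03) and NK cell markers (7.37 against 0.412 to 0.505), whose part in the result was not tested.

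**Figure D4:**
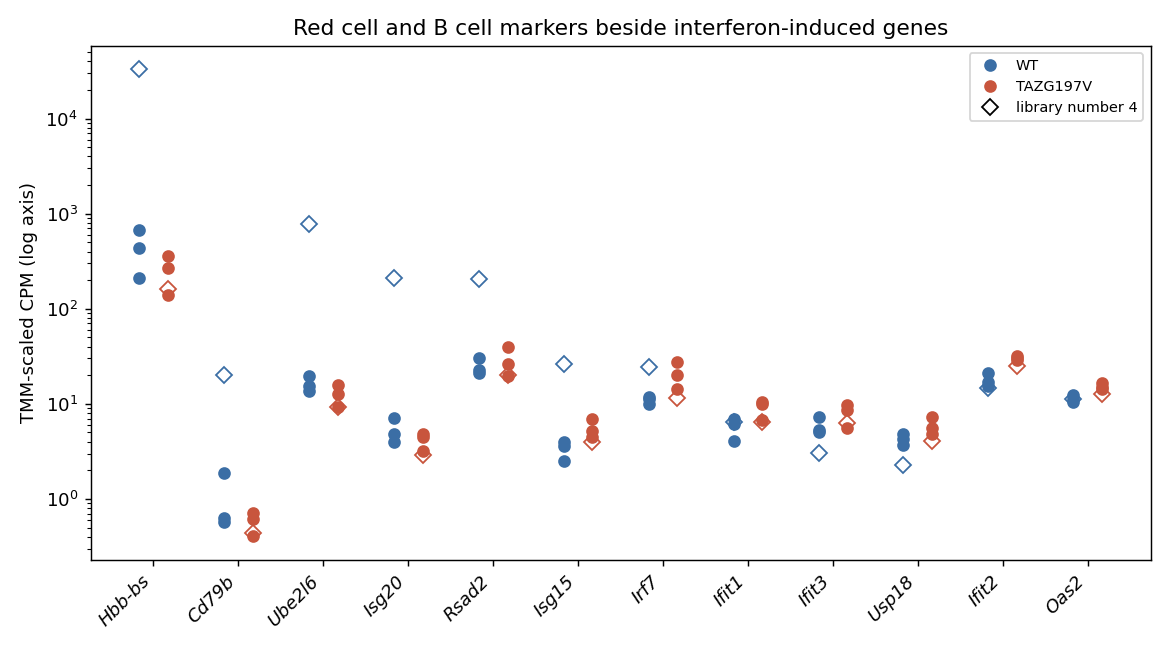
TMM-scaled CPM on a log axis (vertical) of a red cell marker, a B cell marker and 10 interferon-related genes (horizontal), 1 point per library, WT in blue, TAZG197V in red, number 4 libraries as open diamonds. The WT 4 diamond stands above all other points for Hbb-bs, Cd79b, Ube2l6, Isg20, Rsad2 and Isg15, and below them for Ifit3 and Usp18.

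Without both number 4 libraries, 8 members were called higher and 0 lower, in a fit that called 34.1% of genes. Ifit1, Irf7, Isg15 and Zbp1 were gained, and Ifit3, Usp18, Mavs and Irf1 were lost. In those 6 libraries, 8 of the 33 members were higher in every TAZG197V library and 0 were lower, beside 26.9% and 22.6% of genes tested. Without WT 4 alone, 5 were called higher and 1 lower, in a fit that called 31.3% of genes.

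The wider pathway was described with 6 lists of 129 further genes, of which 121 were tested. Of these 9 were called higher (7.44%) and 20 lower (16.5%), beside 18.5% and 15.1% of all genes tested, with a median log2 fold change of -0.08. The 20 lower calls became 11 without WT 4, 12 without TAZG197V 4 and 10 without both, and they became 9, 12, 6 and 9 without WT 1, WT 2, TAZG197V 1 and TAZG197V 2. Over 8 libraries they were 13 with 1 surrogate variable, 11 with none and 10 with lane in their place. DESeq2 gave more lower calls, with 9 in place of 7 among further interferon-induced genes and 7 in place of 6 among interferon-gamma genes. The interferon genes Ifnb1, Ifna4 and Ifnl3 had 0 counts in all 8 libraries, and a count of 0 allows up to 3 counts in 236657714, or 0.0127 CPM. This covers counting error only. Ifng had at most 2 counts in a library. The receptor chains for type I interferon, Ifnar1 and Ifnar2, had log2 fold changes of -0.08 and 0.13 (edgeR adjusted p = 0.348 and 0.256), and Ifnlr1, a chain of the type III receptor, rose (0.37 ± 0.117 SE, adjusted p = 0.0363, called in 11 of 17 alternatives).

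Among 10 genes of JAK-STAT signalling and its feedback, 2 rose and 2 fell. The counts for this list and those that follow are to be read against the 18.5% of all genes tested that were called higher and the 15.1% called lower. Socs3, an inhibitor of JAK kinases, measured 3.55, 5.30, 3.65 and 5.00 CPM in WT and 2.18, 2.62, 2.58 and 2.79 CPM in TAZG197V. The genotypes did not overlap, and the log2 fold change was -0.74 ± 0.165 (SE, edgeR adjusted p = 0.00913). The receptor-bound kinase Tyk2 rose (0.28, adjusted p = 0.00896) and its relative Jak2 fell (-0.22, adjusted p = 0.0145), called in 17 and 12 of 17 alternatives.

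Of 18 genes that act between sensor and factor, 4 were called lower, or 2 without any 1 of WT 1, WT 4, TAZG197V 1 and TAZG197V 4, and 0 were called higher. Nlrx1, a mitochondrial protein that binds MAVS, fell from between 16.3 and 18.7 CPM in WT to between 11.6 and 13.6 CPM in TAZG197V (log2 fold change -0.45 ± 0.078 SE, edgeR adjusted p = 0.00264). Nfkb1 fell (-0.23, adjusted p = 0.0134, called in 14 of 17 alternatives). Ikbke, a kinase of IRF3 and IRF7, was called lower (-0.83, adjusted p = 0.0498) but in 4 of 17 alternatives only, and was at -0.46 without WT 4 (adjusted p = 0.106). Its relative Tbk1 was not called (0.13, adjusted p = 0.183).

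Of 12 tested genes that remove or edit nucleic acids, 2 rose and 1 fell. Both that rose encode subunits of RNase H2, which cuts RNA paired with DNA. Rnaseh2c, which encodes another subunit, was not called over 8 libraries. In libraries 1 to 3 it ranged from 7.80 to 10.8 CPM in WT and from 9.59 to 11.2 CPM in TAZG197V. Rnaseh2b measured 9.30, 8.82, 6.21 and 8.17 CPM in WT and 14.4, 15.1, 12.9 and 12.5 CPM in TAZG197V. The genotypes did not overlap for Rnaseh2b (log2 fold change 0.78 ± 0.135 SE, edgeR adjusted p = 0.00265) nor for Rnaseh2a (0.45 ± 0.0779 SE, adjusted p = 0.0028), and both were called under all 17 alternatives. The RNA-editing enzyme gene Adarb1 fell (-0.24, adjusted p = 0.0215, called in 12 of 17 alternatives). Trex1, a DNA exonuclease, had 0 counts, and Atrip exons cover 100% of its exon bases.

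Of 43 further interferon-induced genes, 3 were called higher and 7 lower, and the 7 became 5 without WT 4, 4 without both number 4 libraries or without WT 2, and 3 without WT 1, TAZG197V 1 or TAZG197V 2. Without both number 4 libraries 4 were called higher, and DESeq2 called 3 higher and 9 lower. Ifit1bl1, a relative of Ifit1 on the same chromosome, measured 5.14, 4.67, 4.43 and 6.65 CPM in WT and 10.6, 11.3, 8.65 and 9.06 CPM in TAZG197V. The genotypes did not overlap, and the log2 fold change was 0.89 ± 0.147 (SE, edgeR adjusted p = 0.00213), called under all 17 alternatives. Ifit3b was called higher (0.79, adjusted p = 0.0199) and in 8 of 17 alternatives, but not without WT 4 (0.32, adjusted p = 0.364), TAZG197V 4 (0.49, adjusted p = 0.185) or both (0.44, adjusted p = 0.167). It has the sequence sharing given for Ifit3. Isg20 was called lower (-2.52, adjusted p = 0.0469) but in 6 of 17 alternatives only, and was at -0.41 without WT 4 (adjusted p = 0.146).

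Of 33 tested interferon-gamma and antigen presentation genes, 1 rose and 6 were called lower, and the 6 became 2 without WT 2, WT 4 or TAZG197V 4, 1 without WT 1 or TAZG197V 2 and 0 without TAZG197V 1. Without TAZG197V 4, and without both number 4 libraries, 3 were called higher and 2 lower. DESeq2 called 2 higher and 7 lower. Psmb10, a subunit of the immunoproteasome, measured 35.3, 34.6, 38.5 and 27.3 CPM in WT and 61.7, 71.2, 64.9 and 53.7 CPM in TAZG197V. The genotypes did not overlap, and the log2 fold change was 0.90 ± 0.0721 (SE, edgeR adjusted p = 6.3e-05). Psmb8 and Psmb9, which encode other subunits, were not called higher, and their genotypes overlapped in libraries 1 to 3. Psmb8 ranged there from 7.78 to 9.47 CPM in WT and 6.94 to 10.1 CPM in TAZG197V. For Psmb9 the ranges were 7.47 to 7.85 and 6.36 to 9.23 CPM. Iigp1, an interferon-induced GTPase, was called lower (-0.72, adjusted p = 0.0234) and in 15 of 17 alternatives. Ciita, the activator of class II genes, was called lower (-1.37, adjusted p = 0.0265), with 11.4 CPM in WT 4 against 2.14 to 3.92 CPM in the other WT libraries, and was at -0.66 without WT 4 (adjusted p = 0.0678). Its call held in 6 of 17 alternatives.

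**Figure D5:**
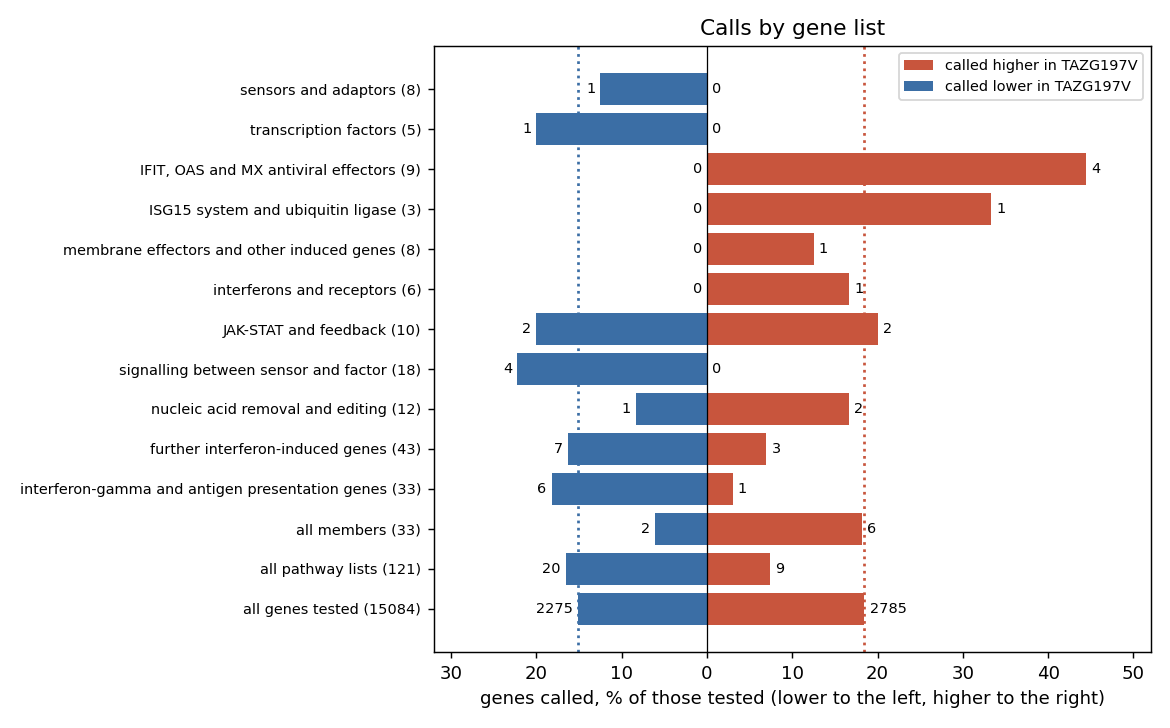
Share of tested genes called (horizontal, %), higher in TAZG197V to the right and lower to the left, for each list (vertical, number tested in brackets), with the number called beside each bar and dotted lines at the shares over all genes tested (18.5% and 15.1%). The IFIT, OAS and MX list has 4 of 9 called higher, and the pathway lists together have 20 of 121 called lower and 9 higher. Without both number 4 libraries, which the bars do not show, 10 were called lower. In that fit the further interferon-induced list had 4 higher and 4 lower, and the interferon-gamma list 3 higher and 2 lower.

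Markers of other cell types differed between genotypes as well. Of the fibroblast markers 4 of 6 were called lower in TAZG197V, of the endothelial markers 2 of 6 and of the cardiomyocyte markers 4 of 8. Beside these counts, 15.1% of all genes tested were called lower. They come from the fit over 8 libraries, where WT 2 had the highest fibroblast sum and WT 3 the highest endothelial sum (1019 CPM). All 6 red cell markers, the 3 B cell markers tested and the 2 atrial markers tested were also called lower, and their sums were far higher in WT 4 (red cell and B cell) or WT 2 (atrial) than in the other libraries. Of the 11 macrophage markers 0 were called, with 3 at an unadjusted p under 0.05. Fibroblast markers summed to 968 to 1645 CPM in WT and 658 to 902 CPM in TAZG197V. The part of these cell types in the levels of the 33 genes was not tested.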

How the data were processed

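RNA of 8 hearts was sequenced as 50 bp single-end reads. Per the labels, the authors used bcl2fastq 2.20.0, FastQC 0.11.9, STAR 2.7.3a on mm10 and featureCounts of Subread 2.0.0, and deposited raw read counts per gene. The annotation release, strand setting and handling of multi-mapping reads were not given in the sources used here, so overlapping and near-identical genes are uncertain. The 92 ERCC rows summed to 0 and were left out. Symbols came from GENCODE M21 (55230 IDs matched, 241 did not).

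Counts were fitted in R 4.3.3 with edgeR 4.0.16 (filterByExpr, TMM, quasi-likelihood F-test, two-sided, Benjamini-Hochberg adjustment over 15084 genes) with 2 surrogate variables from svaseq (sva 3.50.0, seed 1, genotype protected). SE is the log2 fold change over the square root of F. The procedure was tested on simulated data with no library effect or with one shared by both number 4 libraries. An effect in WT 4 alone was not simulated. Alternatives were DESeq2 1.42.0, other covariates, scaling and filters, and omission of libraries.

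The members and lists were chosen with earlier results of these data known. All members are named. Full values are given for called or non-overlapping members and for the highest and lowest of each role. From each pathway list up to 3 called genes with the largest change are named, plus Ifnar1, Ifnar2 and Tbk1, and 1 further gene that the rule names is not reported here. Promoter sequences are from RefSeq (GRCm38.p6). P-values measure the spread between these libraries.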

Additional observations from a re-analysis of the deposited data

Results flagged for a closer look

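In sets of 4 libraries, 10 of 134 sets of values had 1 library whose gap to its nearest neighbour took an unusually large share of the range on the log2(CPM + 0.1) scale, where chance alone would give about 6.7. That number takes the sets as independent and unselected, whereas they share libraries, and Isg20 and Ube2l6 were named for their values here. In WT, the gap took 0.84 of the range for Rsad2, 0.86 for Isg20 and 0.908 for Ube2l6, with WT 4 the highest each time. For the summed T cell and NK cell markers in WT it took 0.836 and 0.938, again with WT 4 the highest. For Dhx58 it took 0.964, with WT 1 the lowest. For the summed endothelial markers it took 0.911, with WT 3 the highest, and for the fibroblast markers 0.889, with WT 2 the highest. In TAZG197V it took 0.879 for Tbk1, with TAZG197V 4 the lowest, and 0.929 for the brain markers, with TAZG197V 4 the highest.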

How the results depend on the processing

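Against 6 members called higher and 2 lower, no surrogate variables gave 3 higher (losing Ifit3, Rtp4 and Usp18), lane as covariate gave 3 higher (losing the same genes), no low-count filter gave 9 higher among 31410 genes (adding Ifi44, Ifit1 and Irf7), and the fit without both number 4 libraries gave 0 lower. Leaving out 1 library at a time gave 2 to 6 higher and 0 to 3 lower. Pathway genes called lower, 20 over 8 libraries, were 11 with no surrogate variables, 13 with 1 and 10 with lane. They were 10 without both number 4 libraries and 6 to 20 with 1 library left out. Those called higher (9) ranged from 5 to 11 with 1 library left out. DESeq2 gave more lower calls, 9 of the further interferon-induced and 7 of the interferon-gamma genes against 7 and 6. Without both number 4 libraries the higher calls in those lists rose from 3 to 4 and from 1 to 3. Members without overlap ranged from 4 to 7 higher and from 0 to 4 lower with 1 library left out, and 1 was lower on DESeq2 size factors. With 1 library left out, all genes called (5060) ranged from 3675 to 4816 and the Taz log2 fold change from -0.40 to -0.35. Over the other alternatives, genes called ranged from 4192 to 5762.

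A replicate block in place of surrogate variables gave 5 members higher and 2 lower (losing Ifit3 and Rtp4 and adding Ifi44), 13 pathway genes lower and 4272 genes called. Deviations of same-numbered libraries correlated at 0.277, 0.0436, 0.28 and 0.416, and those of differently numbered libraries at -0.464 to 0.317. Because the labels name nothing that a number shares and 1 of the 4 values was under 0.1, the numbers were not taken as pairs, although 3 of the 4 were above it.

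Log2 fold changes that changed sign were those of members not called over 8 libraries. With 1 library left out they ranged from -0.0155 to 0.328 for Cgas, -0.114 to 0.00756 for Ddx58, -0.0181 to 0.14 for Ifih1, -0.0503 to 0.0176 for Irf3, -0.0299 to 0.0548 for Stat2, -1.58 to 0.14 for Rsad2, -0.0272 to 0.0902 for Mx2, -1.02 to 0.652 for Isg15, -0.134 to 0.0394 for Trim25 and -0.101 to 0.0943 for Ifi35. Without both number 4 libraries they were 0.0421 for Stat2, 0.236 for Rsad2, 0.733 for Isg15 and 0.0375 for Trim25. With no low-count filter they were 0.0141 for Stat2, 0.337 for Isg15 and 0.0268 for Trim25, and Ifi35 was at -0.00708 with DESeq2 and -0.00856 with its size factors. The fits without WT 2, WT 4, TAZG197V 4 or both number 4 libraries also held 1 surrogate variable in place of 2, and the causes were not tested. Depth limits Cgas and Mx1, at about 1 CPM each.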
